A study of Mus musculus with 8 samples.

Results

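The genes of the interferon response and of class I antigen presentation were examined in cultured mouse mesenchymal stem cells (MSCs, bone stromal cells able to give rise to osteoblasts, adipocytes and chondrocytes) kept at low or atmospheric oxygen. The 36 genes were taken from the count table by their symbols, out of 53465 gene identifiers, and all 36 were found. Of these, 33 passed a filter on low counts that left 14369 genes in all. The cells came from the hind limb bones of wild-type male C57BL/6N mice, aged 3 to 5 months, and the labels place the purification of MSCs by cell sorting at day 12. The study selected cells without CD45 and Ter-119 and with Sca-1 and CD140a, and divided them between both oxygen levels for a further week. In the hypoxia group (4 samples) the cells stayed at 2% oxygen, and in the normoxia group (4 samples) they were moved to 21% oxygen, with 5% CO2 in both groups. No transgene, deletion or other treatment was described in either group, and neither added interferon nor virus was described. How many mice went into a sample is not given in the sources used here. Total counts ranged from 12898291 to 25132141 per sample, the highest being hypoxia replicate 1.

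Interferons are secreted proteins that cells release after sensing viral nucleic acid. They act through receptors and kinases of the JAK family on STAT and IRF transcription factors, which bind DNA elements in the promoters of interferon-stimulated genes. The products of these genes block steps of virus replication, and class I molecules with beta-2 microglobulin (B2m) show peptides from inside the cell to T cells. Interferon-stimulated genes also have a low level in cells that have met no virus, and that low level is what was measured here.

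The promoters of the 36 genes were searched for the letters that interferon-activated factors are known to bind. The genes were listed as members of the interferon response, so a share above that of all promoters was likely from the choice itself. The letters describe the genes and say nothing about the oxygen levels. The window ran from 250 bases before to 50 bases after each transcription start in RefSeq (GRCm38.p6), and 29 of the 36 genes had at least 1 window. The letters GAAANNGAAA, on either strand, are the core of the interferon-stimulated response element and were found for 15 of these 29 genes. Counted by window, they were in 15 of the 34 windows of these genes (44.1%), and in 3.44% of 32851 promoters of the same length. Shown are examples that were lower in normoxia or not called, with matching letters in capitals and 20 bases on each side, written along the gene's own strand. Gbp2, which was higher in normoxia, also held these letters and is not shown.
Bst2 (lower in normoxia), chr8:71537567-71537622, minus strand: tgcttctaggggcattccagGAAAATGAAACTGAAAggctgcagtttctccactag
Igtp (lower in normoxia), chr11:58199502-58199551, plus strand: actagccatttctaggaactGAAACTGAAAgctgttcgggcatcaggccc
B2m (lower in normoxia with the replicate block), chr2:122147528-122147577, plus strand: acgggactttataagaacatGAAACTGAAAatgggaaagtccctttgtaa
Isg15 (not called), chr4:156200855-156200916, minus strand: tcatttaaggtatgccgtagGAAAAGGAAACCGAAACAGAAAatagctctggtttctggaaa
Ifit1 (not called), chr19:34640765-34640833, plus strand: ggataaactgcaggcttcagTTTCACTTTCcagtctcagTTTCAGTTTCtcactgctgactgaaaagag

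In Bst2 and Isg15 the matches overlap each other and form 1 run of capitals, while Ifit1 holds 2 separate matches on the opposite strand. The letters TTCNNNGAA, the core of the gamma-activated site that STAT dimers bind, read the same on both strands as a pattern. They were found for 7 of the 29 genes. Counted by window, they were in 7 of 34 (20.6%), and in 8.3% of all promoters. Both patterns were present in Bst2, Igtp, Gbp7 and Oas1a, and in Bst2 they share the letters GAA. Irf1 held TTCNNNGAA without GAAANNGAAA and is shown because it was higher in normoxia.
Irf1, chr11:53769904-53769952, plus strand: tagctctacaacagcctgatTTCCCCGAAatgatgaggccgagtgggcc

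Of the 15 genes with GAAANNGAAA, 14 were tested. In the comparison below, 2 of them were lower (Bst2 and Igtp), 1 was higher (Gbp2) and 11 were not called, where 16.5% of all tested genes were lower and 18.0% higher. Of the 7 genes with TTCNNNGAA, 2 were lower, 1 was higher and 4 were not called.

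It was asked how the 36 genes differ between the oxygen levels. The comparison used limma-trend across all tested genes, with an adjusted p under 0.05 as the threshold, and log2 changes are normoxia minus hypoxia. In normoxia, 5 of the 33 tested genes were lower (Irf7, Irf9, Bst2, Xaf1 and Igtp), 2 were higher (Irf1 and Gbp2), and 26 were not called. Among all tested genes 16.5% were lower and 18.0% were higher, so that the count of lower genes was near the background share. Samples with the same number were taken as pairs, which the labels do not state. With the pair as a block 11 of the 33 genes were lower, 3 were higher and 19 were not called. The additional lower genes were Usp18, Trim25, Oasl2, Tap1, B2m and H2-K1, and the additional higher gene was Parp9. With the block 22.7% of all genes were lower and 23.3% were higher. The median log2 change of the 33 genes was -0.21, against 0.005 over all tested genes, and 24 of the 33 changes were negative, against 49.5% of all tested genes. The medians within pairs 1 to 4 were -0.18, -0.31, -0.04 and -0.16. The changes were small, ranging from -0.90 to 0.48.

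The counts of called genes depended on single samples. Without hypoxia replicate 1 there were 9 lower genes, without hypoxia replicates 2, 3 or 4 there were 3, 3 and 2, and without normoxia replicate 1 there were 3. Over all tested genes the lower calls moved as well, from 2378 to 2570, 2245, 1819, 1919 and 2125 in the same order. The number of higher genes was 1 without hypoxia replicate 3 or without normoxia replicates 1, 3 or 4. In these fits the higher calls over all tested genes went from 2592 to 2019, 2062, 2032 and 2075. The median change was -0.09 without normoxia replicate 1.

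**Figure D1:**
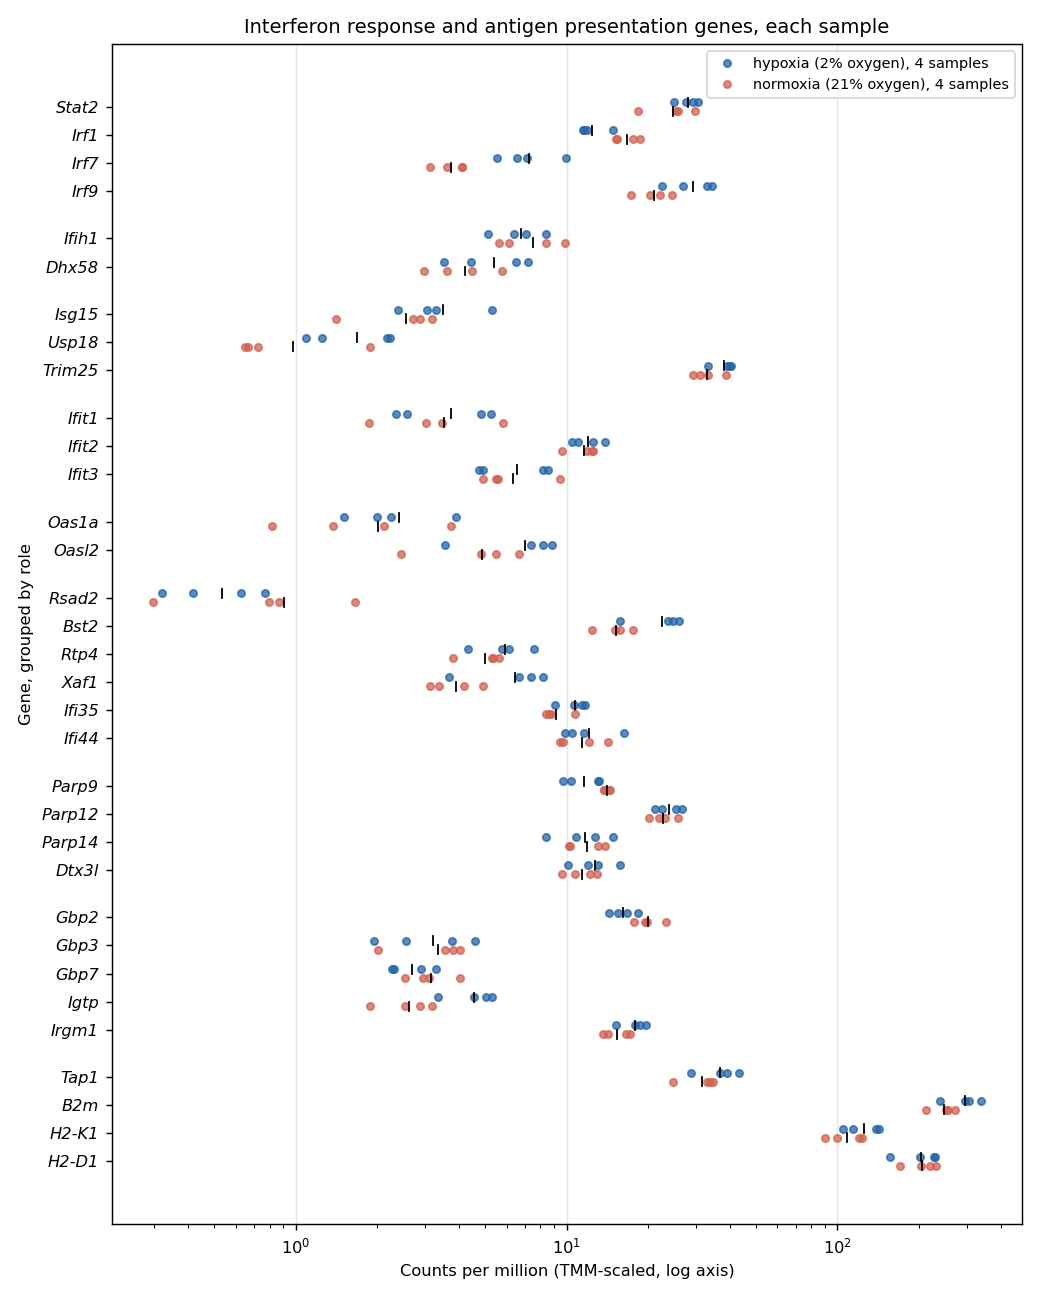
Level of each of the 33 tested genes in every sample, in CPM on a log axis, with 4 hypoxia samples (blue), 4 normoxia samples (red) and the mean of each group (black bar). The groups lie apart for Irf7, Igtp, Irf1 and Parp9 and overlap for the other 29 genes.

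The levels of all 4 values of a group lay apart from those of the other group for 4 of the 33 genes, 2 lower in normoxia (Irf7 and Igtp) and 2 higher (Irf1 and Parp9). Over all tested genes these shares were 15.5% lower and 17.1% higher. Within the pairs, 13 of the 33 genes were lower in normoxia in 4 of 4 pairs, and 4 were higher in 4 of 4 pairs (Irf1, Parp9, Gbp2 and Gbp7). The matching shares over all tested genes were not computed, so these counts cannot be set against a background.

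Among the transcription factors, Irf7 and Irf9 fell in normoxia while Irf1 rose. Irf7 (chr7:141262706-141266481), the factor that drives type I interferon genes and amplifies the response, had 5.52, 7.14, 6.56 and 9.94 CPM (read counts scaled by library size and TMM factor) in hypoxia replicates 1 to 4. In normoxia replicates 1 to 4 it had 3.12, 4.11, 4.11 and 3.62 CPM. Every normoxia value lay below every hypoxia value, and hypoxia replicate 4 was the highest. The log2 change was -0.90 (SE 0.180, adjusted p = 0.0025 with limma), a decrease of 46.5% on this scale and the largest of the 33 genes. Irf7 overlaps Phrf1 on the opposite strand, which had 635 to 1363 counts per sample against 42 to 132 for Irf7. Whether the counting used strand is not stated, so their reads cannot be told apart with certainty.

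Irf9 (chr14:55603571-55610030) is the DNA-binding subunit of the complex it forms with STAT proteins after type I interferon. It had 22.4, 34.5, 27.0 and 33.0 CPM in hypoxia and 17.3, 24.5, 22.2 and 20.3 CPM in normoxia. The groups overlapped, since hypoxia replicate 1 lay below normoxia replicate 2, but every pair was lower in normoxia. The log2 change was -0.46 (SE 0.140, adjusted p = 0.024 with limma, 5.9e-05 with the block). The call was lost in 5 of the 19 alternatives run, namely without normalization and without hypoxia replicates 2 or 4 or normoxia replicates 1 or 4. Irf9 overlaps Rnf31 on the same strand, with 234 to 545 counts per sample, and how reads in the shared stretch were counted is not stated.

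Irf1 (chr11:53770014-53778374), a factor that acts downstream of interferon gamma and at the promoters of class I genes, had 11.5, 11.6, 14.8 and 11.9 CPM in hypoxia. In normoxia it had 18.6, 15.3, 17.6 and 15.2 CPM. The groups lay apart, hypoxia replicate 3 being the hypoxia sample nearest to normoxia. The log2 change was 0.42 (SE 0.111, adjusted p = 0.012 with limma), an increase of 33.6%. Irf1, Irf7 and Igtp were the 3 genes that kept their call in all 19 alternatives.

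Since both genes are read in the same library, the ratio of Irf1 to Irf7 does not depend on the scaling between samples. It was 2.08, 1.63, 2.26 and 1.20 in hypoxia and 5.98, 3.74, 4.28 and 4.21 in normoxia. Every normoxia ratio was above every hypoxia ratio. This had to follow, because both genes had groups that lay apart, in opposite directions, so the ratio adds no separate evidence. This pair of genes was chosen after their values were seen, and the ratio is given without a test. Stat2, the STAT partner of Irf9, had 25.0, 30.5, 27.5 and 29.3 CPM in hypoxia and 18.3, 25.8, 25.3 and 29.7 CPM in normoxia, with a log2 change of -0.20 (adjusted p = 0.26 with limma, 0.051 with the block).

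**Figure D2:**
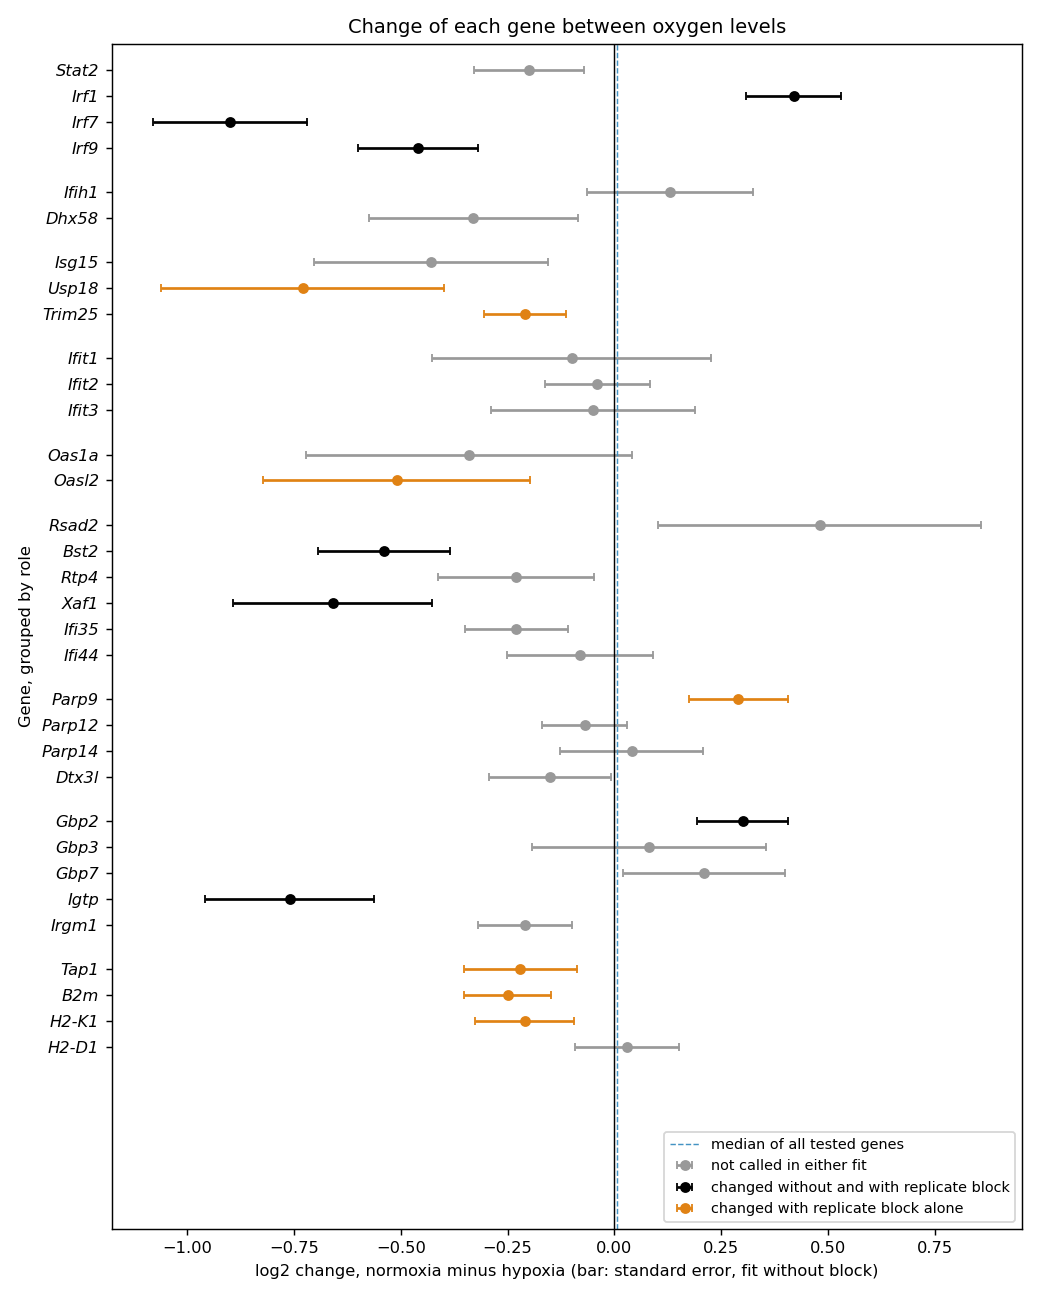
Log2 change of each tested gene, normoxia minus hypoxia, with the standard error of the fit without block as bars. Black marks genes called in both fits, orange those called only with the replicate block, and grey those called in neither, and most points lie left of 0, with Irf7 at -0.90 and Igtp at -0.76 the lowest.

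Igtp and Gbp2 both encode interferon-inducible GTPases that act on membranes around intracellular microbes, and they changed in opposite directions. Igtp (chr11:58199556-58207591), an immunity-related GTPase, had 3.34, 5.05, 4.53 and 5.32 CPM in hypoxia and 2.52, 2.88, 1.88 and 3.17 CPM in normoxia. The groups lay apart, although hypoxia replicate 1 and normoxia replicate 4 were close. On the log2 scale the change was -0.76 (SE 0.198, adjusted p = 0.011 with limma). Igtp overlaps Irgm2 on the same strand, which had 164 to 306 counts per sample against 26 to 80 for Igtp. How reads in the shared stretch were counted is not stated, so the values of Igtp are uncertain to that extent. Irgm2 itself had a log2 change of -0.32 (adjusted p = 0.13 with limma, 0.012 with the block).

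Gbp2 (chr3:142620602-142638008), a guanylate-binding protein, had 16.7, 14.3, 15.5 and 18.3 CPM in hypoxia and 23.2, 17.7, 19.8 and 19.5 CPM in normoxia. Only hypoxia replicate 4 and normoxia replicate 2 overlapped, and all pairs were higher in normoxia. Normoxia minus hypoxia gave a log2 change of 0.30 (SE 0.106, adjusted p = 0.043 with limma, 0.0069 with the block). Gbp2 was called in 10 of the 19 alternatives. It was not called with DESeq2 or its size factors, without the low-count filter or after the GC and length correction. The call was also lost without hypoxia replicates 2 or 3 or normoxia replicates 1, 3 or 4. The ratio of Gbp2 to Igtp was 4.99, 2.83, 3.43 and 3.45 in hypoxia and 9.18, 6.15, 10.5 and 6.17 in normoxia, again without overlap and chosen after the values were seen. Gbp3, Gbp7 and Irgm1, of the same families, had log2 changes of 0.08, 0.21 and -0.21 and were not called without or with the block, where Irgm1 had an adjusted p of 0.054 with limma. After the GC and length correction Irgm1 was lower, with a log2 change of -0.35 (adjusted p = 0.033 with limma). Gbp genes have close paralogs, and reads shared among them make these values uncertain.

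Among the antiviral effectors, Bst2 and Xaf1 fell in normoxia. Bst2 (chr8:71534255-71537456) encodes tetherin, a membrane protein that holds budding virus particles at the cell surface. It had 15.7, 24.8, 23.6 and 25.9 CPM in hypoxia and 12.4, 15.8, 17.6 and 15.1 CPM in normoxia. Hypoxia replicate 1 lay among the normoxia values and the other hypoxia samples lay above all of them. This is a log2 change of -0.54 (SE 0.154, adjusted p = 0.017 with limma, 2.9e-05 with the block). After the GC and length correction alone it was -0.32 and no longer called (adjusted p = 0.14 with limma), and with the block added it was called again (adjusted p = 0.0033). The call was also lost without hypoxia replicate 3 or 4 (adjusted p = 0.051 and 0.057 with limma).

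Xaf1 (chr11:72301629-72313733), an interferon-inducible gene that favours cell death, had 3.68, 7.38, 6.64 and 8.17 CPM in hypoxia and 3.12, 4.90, 4.19 and 3.39 CPM in normoxia. As for Bst2, hypoxia replicate 1 was the 1 hypoxia sample within the range of normoxia. The fitted log2 change was -0.66 (SE 0.232, adjusted p = 0.043 with limma, 0.0013 with the block), and it was called in 10 of the 19 alternatives. It was not called without normalization beyond library size, without the low-count filter or with limma-voom. The call was also lost without hypoxia replicates 2, 3 or 4 or without normoxia replicates 1, 3 or 4.

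The other effectors of this group were not called in either fit. Ifi35, Rtp4 and Ifi44 had log2 changes of -0.23, -0.23 and -0.08, and Ifi44 was lower (-0.31, adjusted p = 0.014 with limma) in the blocked fit corrected for GC content and length. Rsad2, which encodes viperin, an enzyme that makes a chain-terminating nucleotide, had the largest positive value, 0.48, with a standard error of 0.378 (adjusted p = 0.36 with limma). It rested on only 4 to 22 counts per sample, and pair 1 went the other way, at -0.31. Rtp4 overlaps Masp1 on the opposite strand, with 424 to 1385 counts per sample against 51 to 103 for Rtp4.

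Genes of the ISG15 system and the OAS family were not called without the block, and Usp18, Trim25 and Oasl2 were lower with it. Without the block, Oasl2 and Trim25 were also lower without hypoxia replicate 1, and Usp18 and Trim25 without normoxia replicate 4. Usp18, the protease that removes ISG15 and damps interferon receptor signalling, had 1.09, 2.17, 1.25 and 2.23 CPM in hypoxia and 0.668, 0.648, 0.722 and 1.88 CPM in normoxia. Normoxia replicate 4 lay within the hypoxia range, the other normoxia samples below all hypoxia samples. On the log2 scale the change was -0.73 (adjusted p = 0.11 with limma, 0.020 with the block), from 9 to 29 counts per sample. Oasl2, of the oligoadenylate synthetase family, had 3.55, 7.38, 8.20 and 8.86 CPM in hypoxia and 2.45, 4.83, 6.64 and 5.50 CPM in normoxia. All 4 pairs were lower in normoxia, with log2 differences of -0.30 to -0.67, while replicate 1 was the lowest sample of each group. Its log2 change was -0.51 (adjusted p = 0.23 with limma, 0.0032 with the block).

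Trim25, a ligase that uses ISG15 and assists RNA sensing, had a log2 change of -0.21 (adjusted p = 0.11 with limma, 0.020 with the block). Isg15 itself, a ubiquitin-like modifier and 1 of the most used markers of an interferon response, had 2.38, 3.29, 3.04 and 5.32 CPM in hypoxia and 1.41, 2.88, 3.18 and 2.71 CPM in normoxia. Pairs 1 and 4 had log2 differences of -0.68 and -0.92, whereas pair 3 was at 0.06. Isg15 was not called in either fit or in any of the 19 alternatives, with a log2 change of -0.43 (adjusted p = 0.25 with limma, 0.065 with the block). Oas1a varied widely within groups, from 1.50 to 3.90 CPM in hypoxia and from 0.817 to 3.75 CPM in normoxia, and replicate 3 was the highest in both groups.

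The IFIT genes, whose products bind foreign RNA, lay close to 0. Ifit1, Ifit2 and Ifit3 had log2 changes of -0.10, -0.04 and -0.05, with standard errors of 0.327, 0.122 and 0.238. For all 3 genes pair 2 was lower in normoxia, at -0.64, -0.51 and -0.62, and pair 3 was higher, at 0.40, 0.25 and 0.21. The cytosolic RNA sensor Ifih1 (MDA5) and its relative Dhx58 (LGP2) had log2 changes of 0.13 and -0.33, also with pairs in both directions. None of these 5 genes was called in any of the 19 alternatives.

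The PARP genes, which add ADP-ribose to proteins, and Dtx3l, the ligase that partners Parp9, were not called without the block, and Parp9 was called with it. Parp9 had 10.4, 13.0, 9.68 and 13.2 CPM in hypoxia and 13.7, 13.7, 14.3 and 14.5 CPM in normoxia. The groups lay apart, but by a small margin. Normoxia minus hypoxia gave a log2 change of 0.29 (adjusted p = 0.069 with limma, 0.025 with the block). Dtx3l, which overlaps Parp9 on the opposite strand, had -0.15 (adjusted p = 0.44 with limma). It was lower in 1 of the 19 alternatives, the blocked fit corrected for GC content and length, at -0.29 (adjusted p = 0.026 with limma). Parp12 and Parp14 had -0.07 and 0.04.

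**Figure D3:**
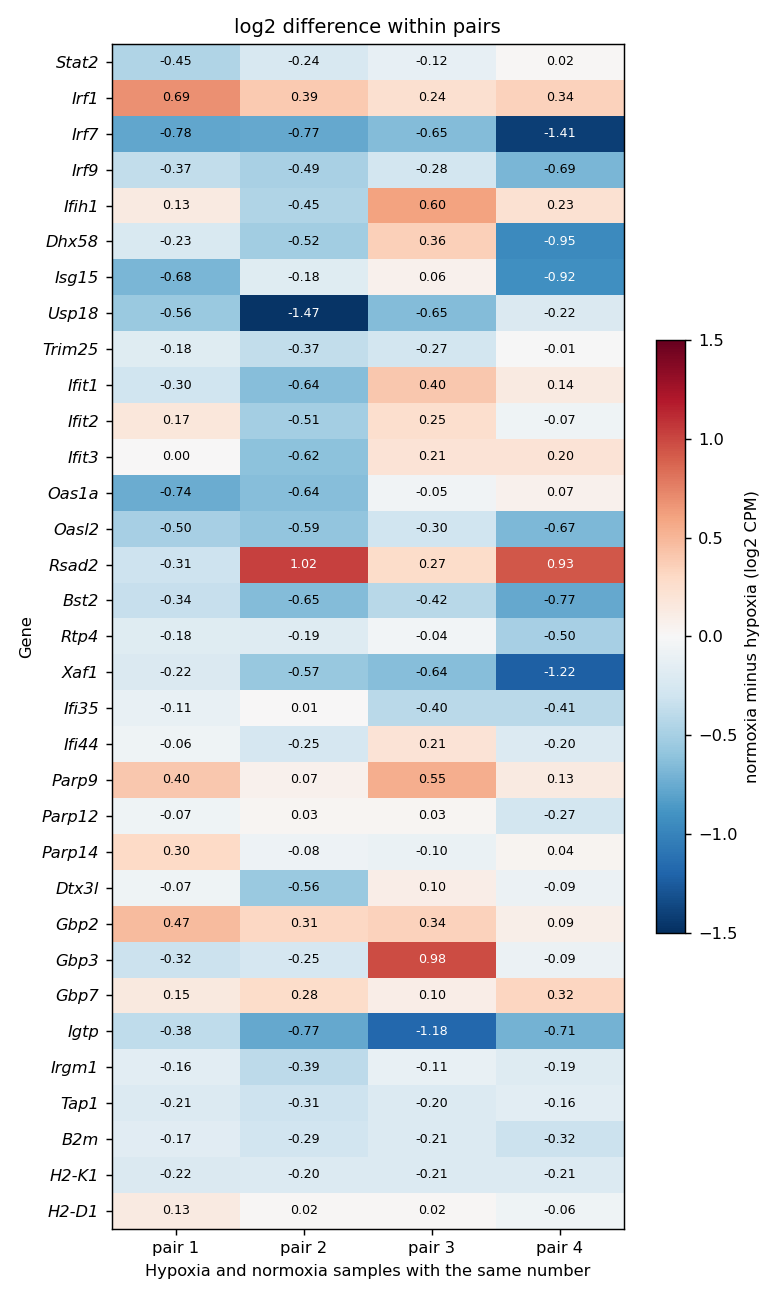
Difference in log2 CPM between the normoxia and the hypoxia sample of the same number for each tested gene, from blue (lower in normoxia) to red (higher). Irf7, Irf9, Oasl2, Bst2, Xaf1, Igtp, Tap1, B2m and H2-K1 are blue in all 4 pairs, Irf1 and Gbp2 red in all 4, and the IFIT genes change colour between pairs.

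In class I antigen presentation, B2m, H2-K1 and Tap1 were lower in every pair by a small amount, and H2-D1 was not. The differences within pairs ran from -0.17 to -0.32 for B2m and from -0.16 to -0.31 for Tap1. B2m (chr2:122147686-122153083), the invariant chain of all class I molecules, had 240, 307, 297 and 339 CPM in hypoxia and 213, 251, 256 and 272 CPM in normoxia. Hypoxia replicate 1 lay within the normoxia range. This is a log2 change of -0.25 (SE 0.102, adjusted p = 0.079 with limma, 0.00019 with the block). B2m was also called after the GC and length correction, at -0.36 (adjusted p = 0.030 with limma, and 5.8e-08 with the block as well).

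H2-K1 (chr17:33996017-34000347) and H2-D1 (chr17:35262730-35267499) encode the classical class I heavy chains. H2-K1 had 105, 114, 142 and 139 CPM in hypoxia and 90.2, 99.8, 123 and 120 CPM in normoxia. The differences within pairs were -0.22, -0.20, -0.21 and -0.21, so that the spread between pair numbers within a group was wide and the change within pairs was nearly constant. The fitted log2 change was -0.21 (adjusted p = 0.19 with limma, 0.0016 with the block). H2-D1 had 156, 201, 227 and 229 CPM in hypoxia and 170, 204, 231 and 219 CPM in normoxia, with a log2 change of 0.03 (adjusted p = 0.89 with limma, 0.70 with the block).

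The ratio of H2-K1 to H2-D1 was 0.674, 0.568, 0.626 and 0.607 in hypoxia and 0.531, 0.489, 0.531 and 0.548 in normoxia. It was lower in normoxia in 4 of 4 pairs and the groups lay apart, and the pair of genes was chosen after the values were seen. These paralogs share long stretches of sequence, and how reads that match both were counted is not stated. When GC content and length were corrected for in the blocked fit, H2-K1 was no longer called (log2 change -0.08, adjusted p = 0.19 with limma) and H2-D1 was higher (0.18, adjusted p = 0.0011 with limma).

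Tap1 (chr17:34187553-34197225), a subunit of the transporter that brings peptides to class I molecules, had 28.7, 43.3, 39.1 and 36.8 CPM in hypoxia and 24.8, 34.8, 33.9 and 32.9 CPM in normoxia. Both samples numbered 1 were the lowest of their group. On the log2 scale the change was -0.22 (adjusted p = 0.22 with limma, 0.0098 with the block), and -0.11 with the block and the correction together, where it was not called. Tap1 overlaps Psmb9 on the opposite strand, which had 20 to 70 counts per sample against 334 to 687 for Tap1.

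Per length, B2m, H2-D1 and H2-K1 had the highest levels of the 36 genes in both groups. In hypoxia and normoxia B2m had a mean level of 344 and 288 CPM per kilobase of exon, H2-D1 78.8 and 79.9, and H2-K1 42.6 and 36.8. Bst2 followed with 24.9 and 16.8 CPM per kilobase. The other tested genes had at most 6.75 in hypoxia (Tap1) and 7.97 in normoxia (Gbp2), down to 0.123 and 0.208 for Rsad2.

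Of the 36 genes 3 did not pass the filter. Mx1 and Mx2, GTPases that trap viral nucleocapsids, had 0 to 2 and 1 to 9 counts per sample. Cxcl10, a chemokine that draws T cells and is strongly induced by interferon gamma, had 3, 0, 1 and 6 counts in hypoxia and 3, 3, 7 and 18 in normoxia. In CPM, Cxcl10 was higher in normoxia in 4 of 4 pairs. Pair 1 had 3 counts in both samples and differed only through the scaling, with total counts of 25132141 in hypoxia and 13164251 in normoxia. Without the filter its log2 change was 0.99 (SE 0.440, adjusted p = 0.16 with limma), and those of Mx1 and Mx2 were -0.04 and 0.03 (adjusted p = 0.91 and 0.97). At these depths 3 counts correspond to 0.119 to 0.233 CPM, and all 8 Mx1 values lay under that level. The floor takes in counting error alone, because amplified reads are not independent molecules.

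The other genes of the pathway were described from lists, whose counts stand beside 16.5% lower and 18.0% higher among all tested genes. None of 10 interferon genes, among them Ifnb1 and Ifng, had a count in any sample. Of 8 receptor and kinase genes 3 were higher in normoxia and 5 were not called without the block. Jak1, a kinase bound to interferon receptors, had 318, 298, 273 and 269 CPM in hypoxia and 408, 378, 388 and 379 CPM in normoxia, without overlap. Its log2 change was 0.43 (adjusted p = 0.00049 with limma). Jak2 and the receptor chain Ifnar1 rose by 0.45 and 0.26 (adjusted p = 0.0011 and 0.011 with limma). With the block 2 further genes of this list were lower.

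Upstream, 12 of 13 genes of nucleic acid sensing were tested, and 2 were lower and 2 were higher. Tbk1, the kinase that activates IRF factors, rose by 0.57, and Mb21d1, the DNA sensor cGAS, rose by 0.47 (adjusted p = 0.00039 and 0.034 with limma). The adaptors Mavs and Ticam1 fell, with log2 changes of -0.27 and -0.28 (adjusted p = 0.014 and 0.018). Of 8 negative regulators, Socs3, Ptpn2 and Ptpn11 rose by 0.47, 0.38 and 0.27, and Irf2bp2 had a log2 change of -0.66.

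Of 37 other interferon-stimulated genes 31 were tested, 7 of them lower and 4 higher, with a median log2 change of -0.22, and 34.6% of all tested genes were called in either direction. Those lower with the smallest adjusted p were Ifi27 (-0.56), Ifitm3 (-0.36), Pml (-0.38) and Ifitm2 (-0.34). The 4 higher genes, Ifi204 (0.86), Herc6 (0.73), Samd9l (0.69) and Eif2ak2 (0.63), each had groups that lay apart. Eif2ak2, the kinase PKR that stops translation on sensing double-stranded RNA, had 25.1, 34.3, 25.8 and 26.6 CPM in hypoxia and 40.5, 45.4, 40.4 and 46.1 CPM in normoxia.

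Around class I, 3 of 13 peptide loading genes were lower and 3 were higher, beside the background shares of 16.5% and 18.0%. Psmb9, an immunoproteasome subunit next to Tap1, had 2.93, 3.45, 5.15 and 4.93 CPM in hypoxia and 1.49, 2.16, 2.53 and 2.11 CPM in normoxia. Its log2 change was -0.91 (adjusted p = 0.0073 with limma), and Psme2 and Tapbp (tapasin) had -0.33 and -0.35. The genes that rose were the general chaperones Pdia3 (0.54) and Canx (0.25), which serve many secreted proteins, and the tapasin relative Tapbpl (0.62). Of 9 other class I genes H2-T22 was lower (-0.58), and of 5 tested class II genes Cd74 (-0.74) and H2-Ab1 (-0.45) were lower. In all, 16 of the 86 tested genes of these lists were lower and 15 were higher, and 27 and 17 with the block, with a median log2 change of -0.14. The counts without the block were near the background of 16.5% lower and 18.0% higher, and with the block the background was 22.7% and 23.3%.

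**Figure D4:**
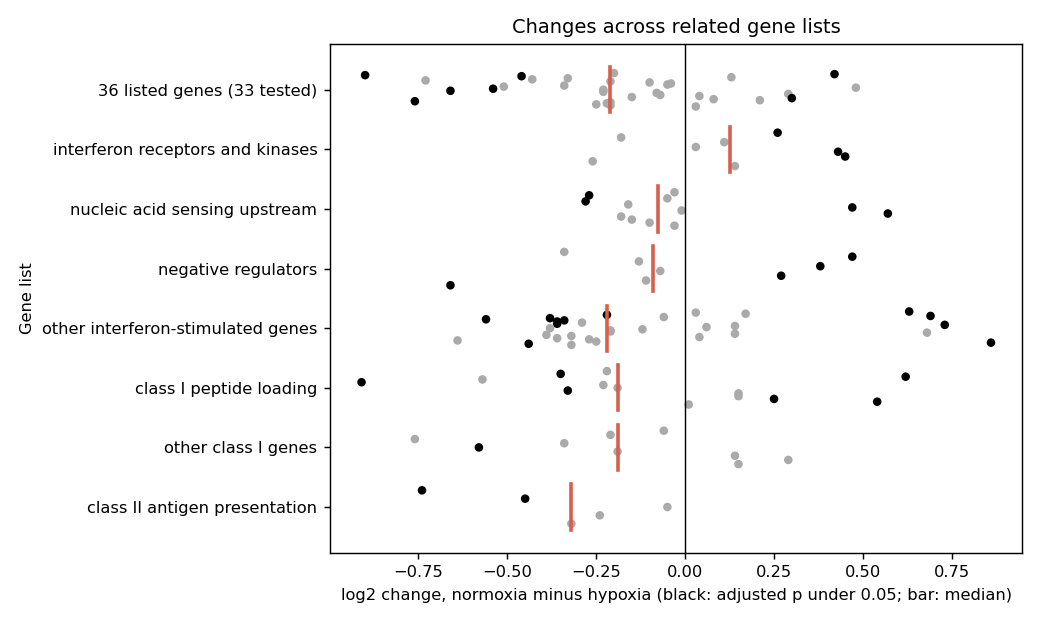
Log2 change, normoxia minus hypoxia, of each tested gene (point, black where the adjusted p is under 0.05) for the 36 genes and 7 lists of related genes, with the median as a red bar. Receptors and kinases have a median of 0.12, and the other medians lie between -0.08 and -0.32.

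The labelled cell type was checked with markers. Pdgfra (CD140a) and Ly6a (Sca-1), which the sort selected, had 1928 to 4011 and 4636 to 11995 counts per sample. Of 10 mesenchymal markers Col1a1 (-0.74) and Eng (-0.27) were lower in normoxia and Nt5e (0.59) was higher, and with the block 7 were lower and 3 were higher, with a median log2 change of -0.21. Markers of lymphocytes, granulocytes and erythroid cells were at or near 0. Of 6 dendritic cell and 6 endothelial markers 2 of each list passed the filter, and none was called in either fit. Their summed levels were 2.3 to 3.39 CPM and 1.28 to 2.65 CPM per sample. Macrophage markers were not absent, although the study had sorted away cells with CD45. All 14 genes of that list passed the filter, none was at 0, and their summed level was 796, 1160, 1790 and 1380 CPM in hypoxia and 809, 997, 1610 and 1180 CPM in normoxia. Without the block 3 of the 14 were lower in normoxia (Laptm5, Mrc1 and C1qa, with log2 changes of -0.91, -0.84 and -0.77), and 1 was higher (Lyz2, 0.56). With the block 10 were lower and 1 was higher, against 22.7% and 23.3% of all tested genes, and the median log2 change was -0.45. Ptprc, which encodes CD45, and Adgre1 had log2 changes of 0.08 and -0.11 and were not called in either fit. In bulk samples, fewer cells of a type and less RNA per cell cannot be told apart.

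Macrophages also express many of the 36 genes, so these values stand beside every decrease above, and their part in it was not tested. The order of samples was alike in part. Replicate 1 was the lowest sample of both groups for 13 of the 14 macrophage markers and for 23 of the 33 genes. Replicate 3 was the highest of both groups for 13 of the 14 markers and for 3 of the 33 genes. The highest hypoxia sample was replicate 4 for 19 of the 33 genes and for 1 of the 14 markers. Replicate 1 was also the lowest of both groups for 38 of the 86 tested related genes and 2 of the 10 mesenchymal markers. The matching shares over all tested genes were not computed, so these counts of sample order cannot be set against a background.

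**Figure D5:**
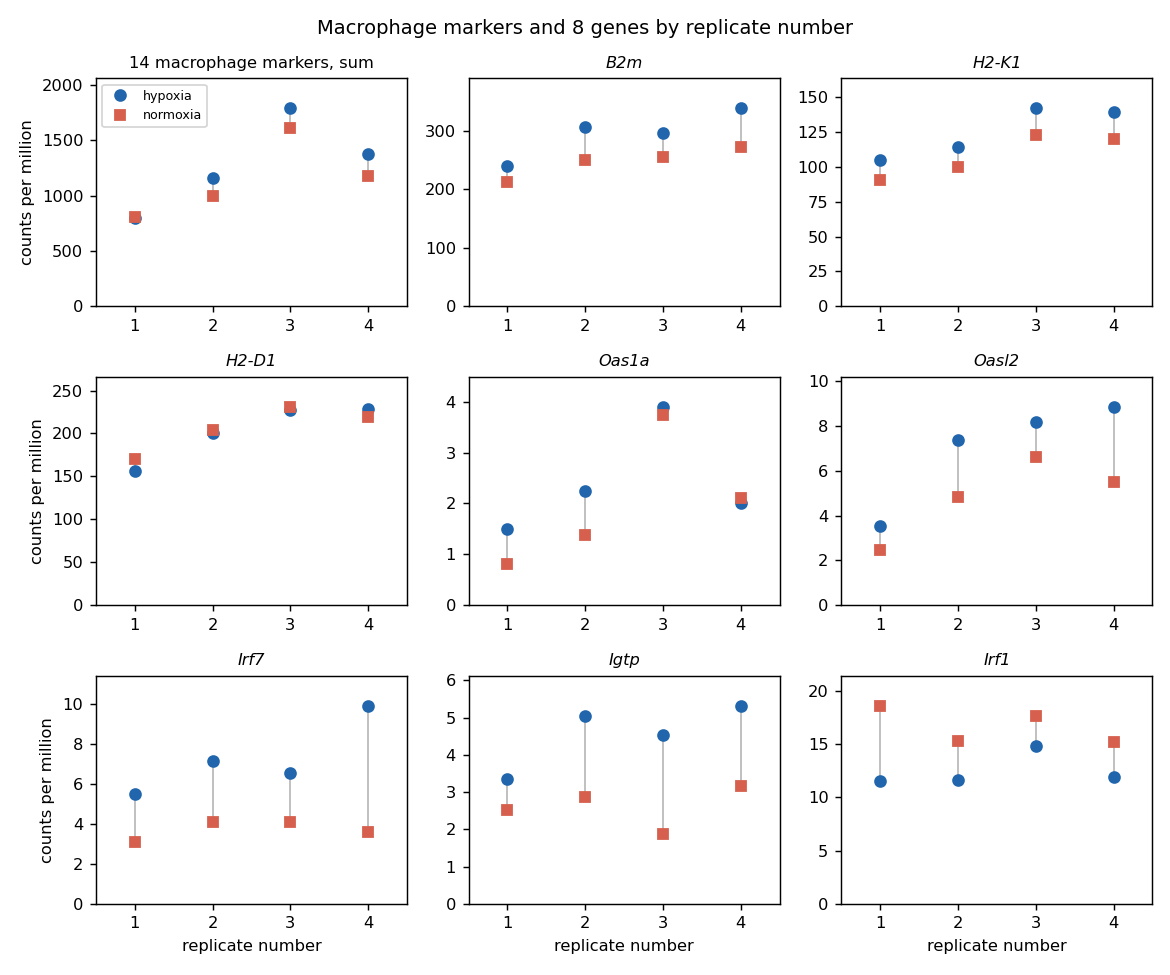
CPM by replicate number for the sum of 14 macrophage markers and for 8 genes, with hypoxia (blue circles) joined to normoxia (red squares) of the same number. Replicate 3 is the highest of both groups for the markers, H2-K1 and Oas1a, whereas Irf7 and Igtp are highest in hypoxia replicate 4 and Irf1 lies higher in normoxia in every pair.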

How the data were processed

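RNA was sequenced from 4 hypoxia and 4 normoxia cultures. Per the study's methods, the authors prepared libraries from total RNA, sequenced single-end reads, and processed them with zUMIs 2.2.1, STAR 2.6.1a, samtools 1.9 and featureCounts (Rsubread 1.32.4) on the mm10 genome with Ensembl annotation. The deposited values are raw counts per gene, whole numbers for 53465 identifiers. Strand use and the handling of reads with several matches are not stated. Symbols, positions and exon lengths came from GENCODE M21 (same assembly), which named 53360 identifiers, and those without a symbol held 0.00364% of the counts.

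Following the study's methods, genes were kept by filterByExpr with a minimum count of 5 (edgeR 4.0.16), which left 14369 genes with 99.9% of the counts. TMM factors were applied, and log2 CPM with a prior count of 3 was compared by limma-trend (limma 3.58.1, R 4.3.3), with Benjamini-Hochberg adjustment over all tested genes. This scale understates changes of genes with few counts. CPM values printed per sample carry no prior count. Log2 values refer to normoxia minus hypoxia.

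Samples with the same number were taken as pairs, because the study divided a sorted population between oxygen levels and the deviations of same-numbered samples from their group means correlated across genes (0.47, 0.28, 0.25 and 0.17 for pairs 1 to 4). Correlations between samples with different numbers were not computed, and the labels do not state the pairing. Blocked and unblocked fits stand side by side. The GC and length correction removed from each sample splines with 5 degrees of freedom for transcript GC content and length, for 14353 genes. True changes that follow these properties are removed as well. DESeq2 1.42.0, edgeR's quasi-likelihood test, limma-voom, other normalizations, filters and prior counts, and leaving out each sample were the other alternatives. Scripts were tested on simulated data. The study describes the samples of a group as biologically independent.

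The 36 genes, the related lists and the markers were chosen with earlier results of these data known. All 36 genes are named. Of each related list the called genes are named, at most the 4 with the smallest adjusted p in each direction, and of the macrophage and mesenchymal lists the called genes, the most counted gene and the genes used in the sort. Adgre1, the change of Irgm2 and the gene ratios were chosen after their values were seen.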

Additional observations from a re-analysis of the deposited data

Results flagged for a closer look

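In 6 of the 66 sets of 4 values (33 genes in each group), 1 sample lay far from the other 3, by Dixon's test at the 95% level. Chance gives about 1 in 20, or 3.3 sets. Irf1 had a log2 CPM of 3.91 in hypoxia replicate 3, against 3.55 to 3.60 in the other hypoxia samples, which places that sample nearest to normoxia. Usp18 had 1.06 in normoxia replicate 4, against -0.23 to -0.11 in the others, and was called lower without that sample. Trim25 had 5.07 in hypoxia replicate 1, against 5.30 to 5.34. Rtp4 and Tap1 were low in normoxia replicate 1, at 2.0 against 2.45 to 2.54 and at 4.64 against 5.05 to 5.13. Ifi35 was high in normoxia replicate 2, at 3.44 against 3.10 to 3.16.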

How the results depend on the processing

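Irf1, Irf7 and Igtp were called in all 19 alternatives, Bst2 in 16, Irf9 in 14, and Xaf1 and Gbp2 in 10 each. The number of lower genes was 5, and it was 3 without normalization beyond library size, 11 with the replicate block and 12 when GC content and length were corrected for in the blocked fit. It ranged from 2 (without hypoxia replicate 4) to 9 (without hypoxia replicate 1) when single samples were left out. Over all tested genes the lower calls then ranged from 1819 (without hypoxia replicate 3) to 2570 (without hypoxia replicate 1). The higher calls over all tested genes ranged from 2019 to 2853 in these fits. The number of higher genes was 2, and it was 1 with DESeq2's size factors, 1 without the low-count filter, 1 with DESeq2 and 1 with the GC and length correction, and from 1 to 3 with single samples left out. The median change ranged from -0.28 to -0.09 with single samples left out, the latter without normoxia replicate 1. The causes were not tested. Without TMM factors the median of all genes moved from 0.005 to 0.089, and the calls over all genes from 2592 higher and 2378 lower to 3611 and 1575.

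Of 627 values for single genes, 32 changed sign, each in a gene called in neither of the fits compared. Without normalization beyond library size, Ifit2, Ifit3, Ifi44 and Parp12 were at 0.045, 0.036, 0.009 and 0.016, and Ifit3 was at 0.005 with limma-voom. With the GC and length correction, without or with the replicate block, Ifih1, Parp14, Gbp3 and Gbp7 were at -0.07, -0.064, -0.026 and -0.003. With single samples left out, values ranged from -0.372 to 0.14 for Ifit1, -0.102 to 0.032 for Ifit2, -0.261 to 0.087 for Ifit3, -0.199 to 0.074 for Ifi44, -0.017 to 0.239 for Ifih1, -0.106 to 0.164 for Parp14, -0.118 to 0.283 for Gbp3 and -0.096 to 0.103 for H2-D1.

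The counts behind Usp18, Rsad2, Mx1, Mx2 and Cxcl10 were low, at most 29, 22, 2, 9 and 18 per sample.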
